A study of Mus musculus with 20 samples.

Results

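The genes described here are the nuclear receptors CAR and PXR (gene symbols Nr1i3 and Nr1i2), their shared partner Rxra, the related xenobiotic sensor Ahr, the haem enzyme Alas1, the electron donor Por, and the Cyp2b cytochromes Cyp2b9, Cyp2b10 and Cyp2b13. A member was a probe set whose gene symbol in the platform annotation was exactly one of these 9 names, and the brightest probe set stood for each gene. Of the 9 genes, 8 had such a probe set, 1 each, among 19938 genes with 1 symbol; Por was not analysed here. The probe sets were 10351533 for Nr1i3, 10439411 for Nr1i2, 10470446 for Rxra, 10400006 for Ahr, 10596454 for Alas1, 10551218 for Cyp2b9, 10551197 for Cyp2b10 and 10551209 for Cyp2b13. Liver RNA of 20 male mice of 4 inbred strains, 5 animals each, had been hybridised to 1 whole-transcript array per animal to find candidate genes. The strains were NZO/Hl (NZO here), an obese and diabetes-prone strain, C3H, 129P2/OlaHsd (129P2 here) and C57/Bl6 (B6 here). All 4 groups were 6 weeks old and untreated with any drug that the labels name, and all had received a high-fat diet from weaning at 21 days, in which fat gave 45, protein 20 and carbohydrate 35 of each 100 calories. No group on another diet was analysed here, so the values describe strains on this diet.

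CAR and PXR are ligand-sensing transcription factors of hepatocytes that bind DNA as dimers with RXRα and switch on genes for the oxidation, conjugation and export of drugs, bile acids and steroids. In mice, Cyp2b10 is the classical CAR target and Cyp3a11 the classical PXR target. Alas1 makes the first and rate-limiting step of haem synthesis, haem being the prosthetic group of every cytochrome P450, and Por passes electrons to these enzymes. AHR senses dioxin-like compounds and drives Cyp1a genes. Cyp2b9 and Cyp2b13 are close copies of each other and are known as female-predominant in mouse liver.

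The members' promoters show how close the Cyp2b genes are, and they were also searched for short motifs. Each RefSeq window used here holds 300 bases of the GRCm38.p6 assembly, given as 250 before to 50 after a start of the gene. The annotated spans of Cyp2b9, Cyp2b13 and Nr1i3 begin earlier than that start, after 191, 143 and 214 bases of their windows. Over the first 250 bases of the windows Cyp2b9 and Cyp2b13 were 99.2% identical, while either one and Cyp2b10 were 70.0% identical. In the whole 300-base windows, Cyp2b9 differed from Cyp2b13 at 2 positions, C48T and T104C, counted from 1 at the 5′ end of the window with the Cyp2b13 base first. The first 140 bases of both windows, which end before the annotated genes begin, are given so that these differences can be seen (chr7:26173159-26173298 for Cyp2b9 and chr7:26061245-26061384 for Cyp2b13, both on the plus strand; capitals mark the differing bases).
Cyp2b9: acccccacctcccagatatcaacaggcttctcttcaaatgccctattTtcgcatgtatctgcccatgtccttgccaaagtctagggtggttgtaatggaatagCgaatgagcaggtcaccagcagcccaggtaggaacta
Cyp2b13: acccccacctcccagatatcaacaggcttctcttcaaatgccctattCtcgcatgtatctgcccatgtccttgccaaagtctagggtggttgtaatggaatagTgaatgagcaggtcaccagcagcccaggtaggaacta
Promoter likeness does not show whether the probe sets of these genes share probes, and probe sequences were not looked at. Which copy a signal comes from was therefore not tested. In B6 replicate 3 the probe sets read apart, with a log2 signal of 7.70 for Cyp2b9 and 4.77 for Cyp2b13. Both strands of each window were searched for the E-box CACGTG, the letters TTANGTAA, bound by the PAR bZIP factors of the circadian clock, and the TATA box letters TATAAA. Windows of 8 members were searched, all but Ahr, and the Nr1i3 window was the one with CACGTG, while none of them held either of the other motifs. Among all 32851 windows in the table, 7.15% held CACGTG, 2.32% TTANGTAA and 13.6% TATAAA, so absence was the common state. At such a share, 1 member of 8 with CACGTG is not unusual and does not set Nr1i3 apart. The first 210 bases of the Nr1i3 window are shown for that match, at bases 7 to 12 in capitals (chr1:171213720-171213929, plus strand).
Nr1i3: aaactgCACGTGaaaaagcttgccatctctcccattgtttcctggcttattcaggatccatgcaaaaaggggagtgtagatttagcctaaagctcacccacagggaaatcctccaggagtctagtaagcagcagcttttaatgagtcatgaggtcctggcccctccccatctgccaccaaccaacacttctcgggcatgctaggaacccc
A motif match describes the letters and says nothing of binding in these livers.

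Values are the deposited log2 signals, in which 1 unit is a doubling. Each array has its own dim level, the 40th percentile of its values, between 6.53 and 6.72. Genes above it on 5 or more arrays were tested, which left 14190 genes and 5 of the 8 members (Nr1i3, Nr1i2, Rxra, Ahr and Alas1). Strains were compared with limma, with p-values adjusted over all tested genes, and a gene was called at an adjusted p under 0.05. The labels do not tie animals to cages, litters or days, so p-values measure the spread between these animals. The 5 measured hepatocyte markers were above the dim level on all 20 arrays, with summed log2 levels between 15.99 and 16.16. B6 replicate 3 stood apart from its strain, with 94 of 14190 genes over 1 log2 unit from the mean of the other B6 animals, the highest number of the 20 arrays, the next being 62 in C3H replicate 2. In whole tissue, fewer cells of a type and less RNA per cell cannot be told apart.

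Nr1i3 was the member that differed between strains. It was lowest in NZO livers and highest in 129P2 livers, and its signal in NZO was 0.399 times that in 129P2. The 5 NZO animals had 8.84, 9.36, 9.98, 8.71 and 9.62. The 5 C3H animals had 9.92, 10.21, 9.60, 10.24 and 10.44, and the 5 129P2 animals 10.01, 10.98, 10.82, 10.54 and 10.79. The 5 B6 animals had 10.45, 10.003, 9.02, 9.20 and 9.75. Every NZO value lay below every 129P2 value (values of these strains did not overlap for 7.95% of all tested genes), while NZO and B6 overlapped over most of their range and the lowest B6 animal was replicate 3. The means were 9.30 ± 0.53 in NZO, 10.08 ± 0.33 in C3H, 10.63 ± 0.38 in 129P2 and 9.68 ± 0.59 in B6 (SD, n = 5 each).

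**Figure D1:**
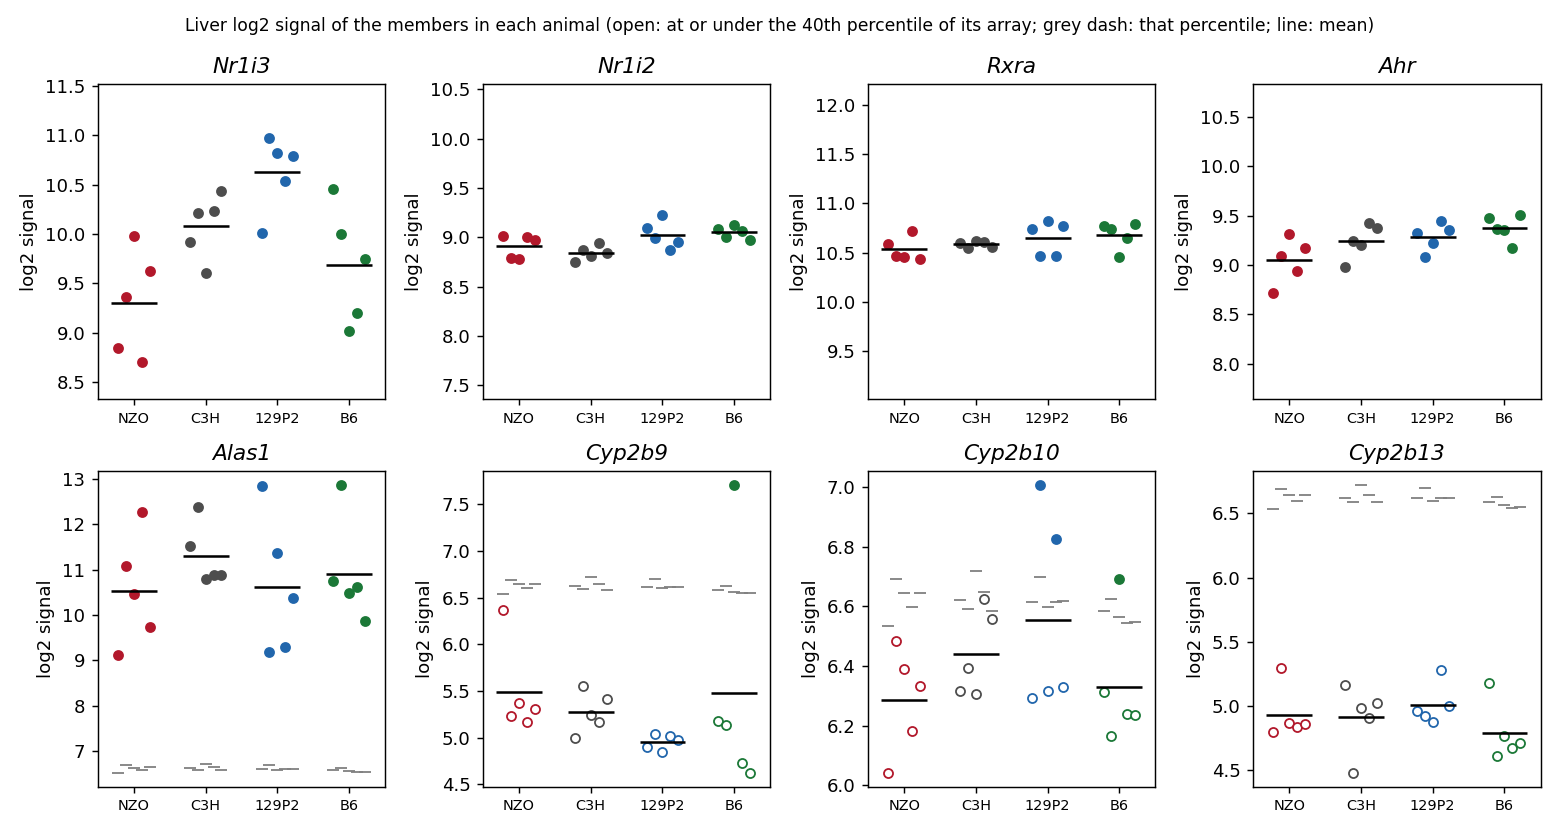
Each panel plots the log2 signal of 1 member (vertical axis) in each animal of the 4 strains (horizontal axis), with the strain mean as a line; open points are dim, and grey dashes give the 40th percentile of each array where it falls in the panel. Nr1i3 differs between strains, Alas1 ranges from 9.11 to 12.85 within and across strains, and the 3 Cyp2b genes lie mostly at or under the dim level.

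The moderated F-test over the 4 strains called 1 of the 5 tested members, Nr1i3 (limma adjusted p = 0.00351), against 17% of all tested genes. NZO minus 129P2 was -1.32 log2 units (95% interval -1.86 to -0.79, limma adjusted p = 0.00130). This was 1 member of 5 called, against a background of 8.9% of tested genes. The 129P2 livers also exceeded B6 livers, by 0.94 log2 units (0.41 to 1.48, 1.92 times, limma adjusted p = 0.0275), again 1 of 5 members with 6.19% of all genes called, although the 2 sets of values overlapped. That second call depended on B6 replicate 3 and on other single animals. Without B6 replicate 3 the difference was 0.78 (limma adjusted p = 0.0894), and it also lost the call without B6 replicate 4 (0.82, adjusted p = 0.0943) or without 129P2 replicate 2, 3 or 5 (0.86, 0.90 and 0.90, adjusted p = 0.0795, 0.0655 and 0.0637). The NZO minus 129P2 difference was called under each of 34 other settings, 20 of which left out 1 animal, with values between -1.49 and -1.13 (limma adjusted p between 0.00053 and 0.0153).

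The remaining Nr1i3 comparisons did not pass the threshold. NZO minus C3H was -0.78 (-1.31 to -0.24, limma adjusted p = 0.0782), and it was called without NZO replicate 3 (-0.95, adjusted p = 0.0293) or without C3H replicate 3 (-0.90, adjusted p = 0.0471). C3H minus 129P2 was -0.55 (-1.08 to -0.02, limma adjusted p = 0.291). NZO minus B6 was -0.38 (-0.91 to 0.15, limma adjusted p = 0.363) and C3H minus B6 0.40 (-0.14 to 0.93, adjusted p = 0.337). In the order 129P2, C3H, B6, NZO, then, no 2 neighbours differed past the threshold.

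**Figure D2:**
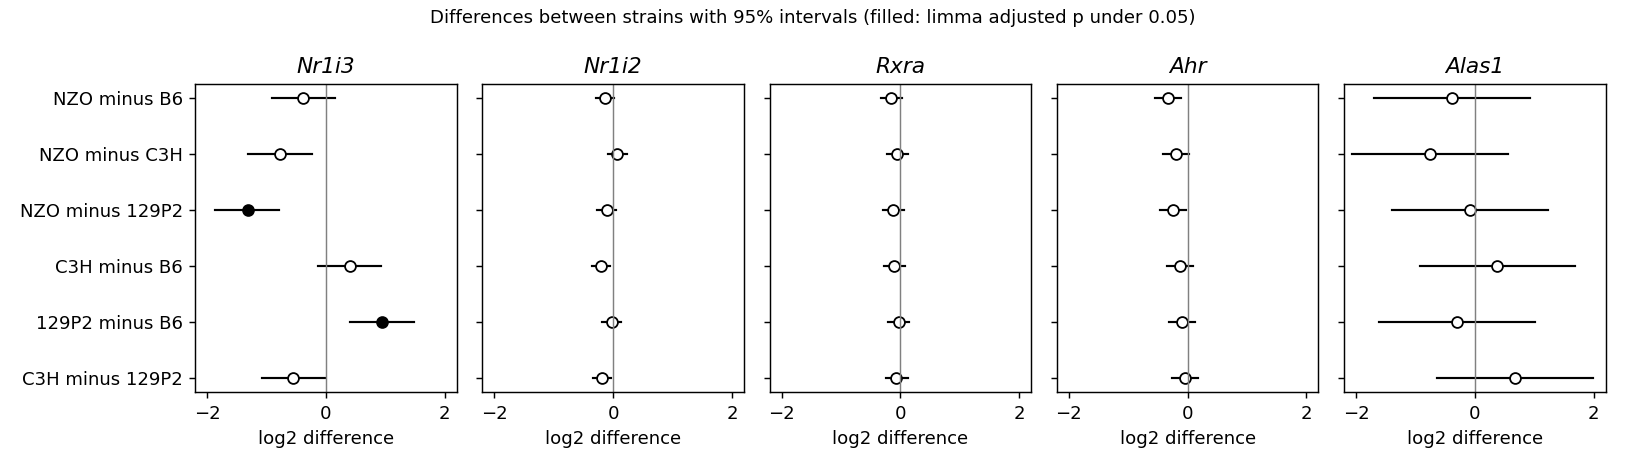
Each panel gives 1 tested member, with the log2 difference of each of the 6 strain comparisons (horizontal axis, first-named strain minus second) and its 95% interval; filled points passed a limma adjusted p of 0.05. The 2 filled points are Nr1i3 in NZO minus 129P2 (-1.32) and in 129P2 minus B6 (0.94), and the intervals of Alas1 are the widest of the 5 members shown.

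Across the 20 arrays, the 4 tested genes whose centred values lay nearest to those of Nr1i3 were Bhlhe41, Cyp1a2, Sntg1 and Igsf23, at root mean square differences of 0.43, 0.44, 0.44 and 0.46 log2 units, where Nr1i3 itself varied by 0.65 about its mean. Bhlhe41, a repressor of the circadian clock, averaged 6.01 ± 0.14 in NZO, where all 5 values were dim, 7.02 ± 0.42 in C3H, 7.20 ± 0.68 in 129P2 and 6.64 ± 0.55 in B6 (SD, n = 5 each). Cyp1a2, which oxidises caffeine and aromatic amines, averaged 12.63 ± 0.05 in NZO, 13.14 ± 0.13 in C3H, 13.24 ± 0.13 in 129P2 and 12.83 ± 0.39 in B6 (SD, n = 5 each). B6 replicate 3 was the lowest B6 animal for Bhlhe41 (5.91, dim) and Cyp1a2 (12.19), as it was for Nr1i3. Both genes were picked for nearness to Nr1i3 on these same arrays, so sharing its lowest B6 animal adds no evidence. Sntg1 was dim in all 5 NZO and all 5 B6 animals and in 2 C3H animals, and averaged 7.27 ± 0.16 in 129P2 (SD, n = 5). Igsf23 averaged 7.08 ± 0.31 in NZO and 8.09 ± 0.16 in 129P2 (SD, n = 5 each).

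Nr1i2 varied little. Its NZO values were 9.01, 8.79, 8.78, 9.01 and 8.97, its C3H values 8.75, 8.87, 8.81, 8.94 and 8.84, its 129P2 values 9.09, 9.0, 9.22, 8.87 and 8.95, and its B6 values 9.08, 9.0, 9.13, 9.07 and 8.97. All 20 animals fell within 0.47 log2 units. C3H and B6 values did not overlap, which held for 8.81% of all tested genes, but C3H minus B6 was only -0.21 (-0.36 to -0.05, limma adjusted p = 0.0923). The F-test gave an adjusted p of 0.133 (limma). In this comparison 0 of 5 members passed, with 8.05% of all genes called and 1 member, Nr1i2, at an unadjusted p under 0.05 in limma.

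Rxra, which encodes RXRα, was the steadiest member after Nr1i2 within strains and bright in every animal. It had 10.59, 10.47, 10.46, 10.72 and 10.44 in NZO, 10.60, 10.55, 10.62, 10.61 and 10.56 in C3H, 10.74, 10.46, 10.82, 10.46 and 10.77 in 129P2, and 10.78, 10.74, 10.46, 10.65 and 10.79 in B6. Each pair of strains overlapped. The strain means ran over 0.15 log2 units and the F-test gave an adjusted p of 0.52 (limma); NZO minus B6, the widest, was -0.15 (-0.33 to 0.03).

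Ahr was lowest in NZO livers on average. It had 8.72, 9.09, 9.32, 8.94 and 9.17 in NZO, 8.98, 9.24, 9.20, 9.42 and 9.38 in C3H, 9.33, 9.08, 9.23, 9.45 and 9.35 in 129P2, and 9.47, 9.37, 9.36, 9.17 and 9.51 in B6. NZO overlapped each other strain. NZO minus B6 was -0.33 (-0.55 to -0.11, 0.797 times) at a limma adjusted p of 0.0537, on the edge of the threshold, and 9 of 34 other settings put it past. So 0 of 5 members were called in NZO minus B6, where 10.3% of genes were, and Ahr alone had an unadjusted p under 0.05 in limma. In NZO minus C3H the called members were likewise 0 of 5, with 6.6% of genes called and Nr1i3 alone at an unadjusted p under 0.05. In C3H minus 129P2 they were 0 of 5, with 5.03% of genes called and Nr1i2 and Nr1i3 at an unadjusted p under 0.05.

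Alas1 varied more between animals of the same strain than any other tested member, and no strain comparison of it passed. The 5 NZO animals had 9.11, 11.07, 10.47, 12.26 and 9.74, and the 5 C3H animals 11.52, 12.38, 10.79, 10.88 and 10.88. The 5 129P2 animals had 12.83, 9.18, 11.36, 9.30 and 10.38, and the 5 B6 animals 10.74, 12.85, 10.47, 10.62 and 9.87. Each strain held 1 animal above 12 log2 units, and the 4 strains overlapped throughout. Between the highest and the lowest animal the signal differed 8.87-fold in NZO, 3.02-fold in C3H, 12.6-fold in 129P2 and 7.92-fold in B6, and 13.3-fold over all 20. The within-strain SD of Alas1, 1.18 log2 units, ranked 6 of 14190 tested genes, whose median was 0.145. That of Nr1i3, 0.468, ranked 146, and those of Ahr, Rxra and Nr1i2 were 0.173, 0.126 and 0.101. The F-test for Alas1 gave an adjusted p of 0.736 (limma), and the largest comparison, NZO minus C3H, was -0.76 with an interval of -2.07 to 0.56. Such intervals do not show that the strains are alike.

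Because the spread of Alas1 lay within strains, each other gene was fitted on Alas1 next to strain and array spread, a fit added after the data had been seen. Of 14189 genes, 99 followed Alas1 at an adjusted p under 0.05 (0.698%), 78 with a positive and 21 with a negative slope. Among the positive ones, per log2 unit of Alas1, were Tuft1 at 0.23 ± 0.02 (SE; limma adjusted p = 0.000111), Mcm10, a DNA replication factor, at 0.32 ± 0.04 (adjusted p = 0.000631), Pfkfb3, which makes the glycolytic activator fructose 2,6-bisphosphate, at 0.38 ± 0.06 (adjusted p = 0.00225) and Lpin1, a phosphatidate phosphatase, at 0.53 ± 0.08 (adjusted p = 0.00358). Socs2 and Cish, inhibitors of cytokine signalling that growth hormone induces in liver, rose by 0.61 ± 0.09 and 0.57 ± 0.12 (limma adjusted p = 0.00225 and 0.0302). Negative slopes were found for Tnfaip2 (-0.26 ± 0.03, limma adjusted p = 0.000804) and Irf1, an interferon-regulated factor (-0.21 ± 0.03, adjusted p = 0.00214). These 8 genes were picked after their values were seen. Igf1 and Bcl6, looked up beside Socs2 and Cish, did not pass in this fit (0.05 ± 0.02 and -0.41 ± 0.12, limma adjusted p = 0.33 and 0.214). A part of growth hormone in these slopes was not tested.

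The per-animal levels show the size of these relations. Socs2 was 10.72 in the 129P2 animal with the highest Alas1 of its strain, against 7.90 and 7.35 in the 2 lowest. Lpin1 in the same 3 animals was 11.93, against 9.14 and 8.62. This strain had the widest contrast. Between the highest and the lowest Alas1 animal, Socs2 was 10.44 against 9.79 in NZO, 10.71 against 8.12 in C3H and 9.40 against 8.10 in B6, where replicate 4 held the highest Socs2, 9.77, at an Alas1 of 10.62. Lpin1 was 9.88 against 9.63 in NZO, 10.50 against 9.68 in C3H and 10.63 against 9.45 in B6. The counts rested heavily on the 2 arrays with the most extreme Alas1, B6 replicate 2 and 129P2 replicate 1. Without B6 replicate 2 the number of genes called was 36, without 129P2 replicate 1 it was 37, and without both it was 1, although the Socs2 slope was then 0.69 and that of Irf1 -0.18 (limma adjusted p = 0.164 and 0.285). It was also 59 without NZO replicate 5 and 62 without 129P2 replicate 4. Cish lost its call in 5 of 20 fits that each left out 1 animal, with adjusted p up to 0.319, and over all 30 other settings it was called in 20. With probe sets averaged per gene, the Irf1 slope was -0.11 (limma adjusted p = 0.061).

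**Figure D3:**
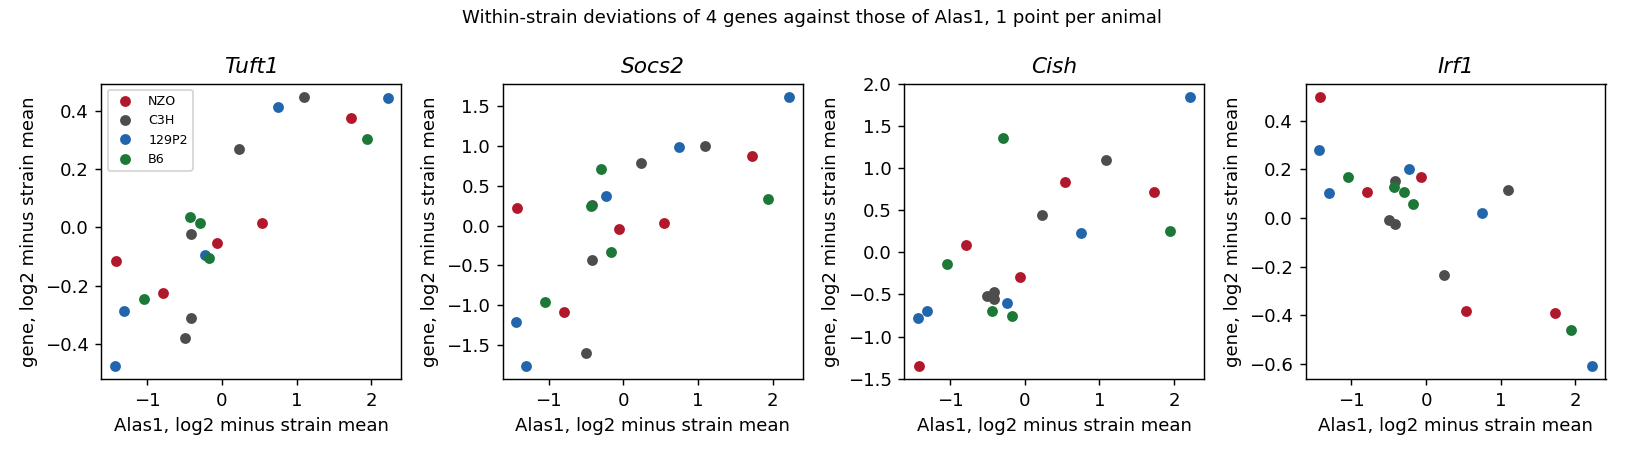
Each panel plots the log2 deviation of a gene from its strain mean (vertical axis) against that of Alas1 (horizontal axis) in the 20 animals, coloured by strain. Tuft1, Socs2 and Cish rise with Alas1 (slopes of 0.23, 0.61 and 0.57) and Irf1 falls with it (-0.21), with 129P2 replicate 1 and B6 replicate 2 at the far right.

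No other member followed Alas1 within strains, and none of the 5 tested members followed another: 0 of 20 slopes passed (limma, lowest adjusted p = 0.461), with 3 at an unadjusted p under 0.05. Of the 13 tested genes of haem synthesis, breakdown and transport, 0 followed Alas1, the lowest limma adjusted p being 0.62 with 0 at an unadjusted p under 0.05. Fitted in the same way on Nr1i3, Nr1i2, Rxra and Ahr, 0 of 14189 genes passed in each case (limma), with 1253, 392, 1338 and 826 at an unadjusted p under 0.05. Clock genes were looked at because Alas1 and Nr1i3 are known in mouse liver to be driven by PAR bZIP factors, and the time of day of sampling is not in the labels. Of 16 tested clock genes, chosen after the data were seen, 0 passed for either member (limma). For Alas1, 7 of the 16 had an unadjusted p under 0.05 in limma, a larger share than the 9.15% of all genes. For Nr1i3, 10 of the 16 had, a larger share than the 8.83% of all genes. Of these, 4 were positive and 3 negative for Alas1, and 8 positive and 2 negative for Nr1i3. For Nr1i3 they included the core repressor Per3 (0.62 ± 0.15 per log2 unit of Nr1i3, limma adjusted p = 0.239) and the nuclear receptor Nr1d1 (0.41 ± 0.11, adjusted p = 0.308). The negative ones for Nr1i3 were the core activators Arntl (-0.45 ± 0.19, adjusted p = 0.495) and Clock (-0.20 ± 0.08, adjusted p = 0.467). Such slopes were not particular to Alas1 and Nr1i3. For Rxra, 9.43% of all genes had an unadjusted p under 0.05, and clock genes were among them. Examples were Nfil3 (-1.31 ± 0.33 per log2 unit of Rxra, limma adjusted p = 0.166) and Per2 (1.33 ± 0.34, adjusted p = 0.176).

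The called strain differences in the haem pathway lay in other genes than Alas1. Alad, which catalyses the step after Alas1, had 11.25, 10.65, 11.05, 11.04 and 11.07 in NZO and 11.34, 11.49, 11.59, 11.46 and 11.64 in C3H. It had 10.29, 10.35, 10.61, 10.39 and 10.24 in 129P2 and 10.32, 10.33, 10.16, 10.15 and 10.42 in B6. C3H and NZO were thus set off from 129P2 and B6 without overlap. C3H exceeded B6 by 1.23 ± 0.10 and 129P2 by 1.13 ± 0.10, and NZO exceeded B6 by 0.74 ± 0.10 and 129P2 by 0.64 ± 0.10 log2 units (SE; limma adjusted p of 0.000136 or less). Abcb10, a mitochondrial transporter needed for haem synthesis, was lowest in NZO (-0.49, -0.63 and -0.62 against B6, C3H and 129P2, limma adjusted p = 0.00189, 0.000147 and 0.000168). Of the 13 tested genes, 2 (15.4%) were called in each of NZO minus B6, C3H and 129P2, against 10.3%, 6.6% and 8.9% of all tested genes.

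Signals of the Cyp2b members were mostly dim, so they were outside the main test. Cyp2b10 exceeded the dim level on 3 of 20 arrays, Cyp2b9 on 1 and Cyp2b13 on 0. Cyp2b10 had 6.04, 6.49, 6.39, 6.18 and 6.33 in NZO, 6.32, 6.39, 6.31, 6.62 and 6.56 in C3H, 6.29, 7.01, 6.32, 6.83 and 6.33 in 129P2, and 6.31, 6.17, 6.69, 6.24 and 6.24 in B6. The values above the dim level were 7.01 and 6.83, in 129P2 replicates 2 and 4, and 6.69, in B6 replicate 3. Within 129P2, those 2 animals also had the 2 lowest Alas1 signals, 9.18 and 9.30. In B6 replicate 3, Alas1 was 10.475, not the lowest of its strain, which ran from 9.87 to 12.85.

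Cyp2b9 was dim in all animals but 1. It had 6.36, 5.23, 5.37, 5.17 and 5.30 in NZO, 5.0, 5.55, 5.24, 5.17 and 5.42 in C3H, 4.90, 5.03, 4.85, 5.01 and 4.98 in 129P2, and 5.18, 5.14, 7.70, 4.73 and 4.63 in B6. The one value above the dim level, 7.70, was that of B6 replicate 3, which stood 2.78 log2 units above the mean of the other B6 animals. By size this was the deviation ranked 6 among all 19938 genes in that animal. Cyp2b13 was dim in all 20 animals, between 4.48 and 5.30, with 4.77 in B6 replicate 3. In a fit without the filter, no strain comparison of the 3 Cyp2b genes passed (limma adjusted p of the F-tests 0.622, 0.406 and 0.585 for Cyp2b9, Cyp2b10 and Cyp2b13). NZO and 129P2 values of Cyp2b9 did not overlap, but both sets were dim, so their order carries no level.

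Other genes moved with Cyp2b9 in B6 replicate 3. The fatty acid hydroxylase Cyp4a14 was 4.01 log2 units above the mean of the other B6 animals and the hormone Fgf21 2.86 above, while the male-predominant enzymes Cyp7b1 and Hsd3b5 deviated by -2.97 and -1.86, with Cyp7b1 at 9.28 and Hsd3b5 at 9.83. Of 15 measured male-predominant liver genes, this animal was the lowest B6 animal for 13, and of 10 female-predominant genes it was the highest for 5, as NZO replicate 2 was within NZO. Only 5 of those 10 exceeded the dim level on any array, so that count includes dim values. The same count of male-predominant genes was 10 of 15 for C3H replicate 2 within C3H, where Cyp2b9 was 5.55 and dim. Between strains, 6 of the 15 were called higher in NZO than in B6 (40%, against 3.63% of all genes) and 0 lower. Against C3H, 2 were higher and 2 lower (13.3% each, against 3.51% and 3.09%). Against 129P2, 4 were higher and 1 lower (26.7% and 6.67%, against 4.29% and 4.61%). Moxd1 was raised most (3.52, 3.72 and 4.74), and Susd4 fell most against C3H and 129P2 (-1.40 and -1.01). These genes were looked at after their values were seen, and their part in the Cyp2b9 value was not tested.

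The neighbours of the Cyp2b genes in the Cyp2a to Cyp2t cluster did not follow a strain pattern that passed the test. Of 10 listed, 8 were measured and 4 tested (Cyp2a12, Cyp2b23, Cyp2f2 and Cyp2s1), and 0 were called in any of the 6 comparisons (limma), the lowest adjusted p being 0.135 for Cyp2a12 in NZO minus 129P2, with at most 1 of the 4 at an unadjusted p under 0.05 in a comparison. Cyp2f2, known from lung and liver, averaged 13.73 ± 0.16 in NZO, 13.71 ± 0.05 in C3H, 13.66 ± 0.19 in 129P2 and 13.78 ± 0.07 in B6 (SD, n = 5 each). Cyp2b23 averaged 6.83 ± 0.19, 6.98 ± 0.12, 6.88 ± 0.10 and 6.77 ± 0.20 in NZO, C3H, 129P2 and B6 (SD, n = 5 each), and Cyp2b19, Cyp2g1 and Cyp2t4 were dim on all 20 arrays.

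Reported targets of CAR and PXR outside the Cyp2b family were often lower in NZO livers, 11 of them against each other strain. Of 35 listed targets, 28 were measured and 26 tested. In NZO, 14 were lower than in B6 (53.8%, against 6.64% of all genes), 13 lower than in C3H (50%, against 3.09%) and 16 lower than in 129P2 (61.5%, against 4.61%), and 1, 2 and 2 were higher (3.63%, 3.51% and 4.29% of all genes). Their median differences were -0.54, -0.46 and -0.74 log2 units, where the medians over all tested genes were 0.009, -0.003 and 0.008. The list was written with earlier results of these data known, and Cyp2c29, Cyp2c37, Cyp2c50 and Gstm3 had been named there. Without these 4, the lower counts were 10, 9 and 12 of 22. Their close relatives Cyp2c54, Gstm1 and Gstm2 stayed among the 22, so these counts are not independent of the earlier results. In comparisons without NZO, 3 targets were called lower in C3H minus B6 (11.5%, against 5.34% of all genes). In 129P2 minus B6, 1 was lower (3.85%, against 4.08%) and 1 higher (3.85%, against 2.11%). In C3H minus 129P2, 8 were lower (30.8%, against 2.78%), so a raised share of lower targets was not particular to NZO. The 3 NZO comparisons share the NZO animals.

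Cyp3a11 had 10.89, 7.54, 9.32, 10.36 and 9.79 in NZO, 11.68, 11.93, 11.30, 10.85 and 11.34 in C3H, 11.62, 11.94, 11.60, 12.25 and 11.22 in 129P2, and 11.46, 11.49, 12.21, 11.51 and 11.51 in B6. NZO lay below 129P2 and B6 without overlap and overlapped C3H by 1 animal on each side. NZO minus B6 was -2.05 ± 0.39, NZO minus C3H -1.84 ± 0.39 and NZO minus 129P2 -2.15 ± 0.39 (SE; limma adjusted p = 0.00103, 0.00356 and 0.00067). NZO replicate 2 had the lowest Cyp3a11 of the 20 animals, 7.54, and also the lowest Cyp2c29, 8.11, with Nr1i3 at 9.36, the middle NZO value. Without it the lower counts were 12, 12 and 15 of 26, and without B6 replicate 3 they were 13, 13 and 16.

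The 11 targets lower in all 3 NZO comparisons were Cyp3a11, Cyp2c29, Cyp2c37, Cyp2c50, Cyp2c54, Ces2a, Gstm1, Gstm3, Papss2, Abcc3 and Slco1a4, and over all 14190 tested genes 173 were lower in all 3. Cyp2c37 had the largest fall against B6 and C3H (-2.36 and -2.70) and Cyp2c29 against 129P2 (-2.55). The Cyp2c and Gstm families hold near-identical genes, so which copy fell is uncertain. The transporters Abcc3 and Slco1a4, which move conjugates out of and organic anions into the hepatocyte, fell by 1.39 and 1.22 against B6, by 1.89 and 0.96 against C3H and by 1.37 and 2.06 against 129P2. Aldh1a7 was the one target higher in NZO in all 3, by 0.83, 0.97 and 0.91. Cyp3a13 was higher in NZO than in C3H by 1.92, C3H being low for it, at 8.74 ± 0.10 against 10.33 ± 0.14 in B6 (SD, n = 5 each; C3H minus B6 -1.59, limma adjusted p = 3.12e-09). In 129P2 minus B6, Slco1a4 was higher (0.84) and Abcc2 lower (-0.27). In C3H minus B6, Cd36, a fatty acid transporter, and Abcc2 were also lower (-0.82 and -0.29). The 8 targets lower in C3H minus 129P2 were Cyp3a13 (-1.45), Cd36 (-1.14), Slco1a4 (-1.10), Gstm3 (-0.75), Gstm1 (-0.55), Gstm2 (-0.52), Ugt2b35 (-0.49) and Abcb1a (-0.42).

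**Figure D4:**
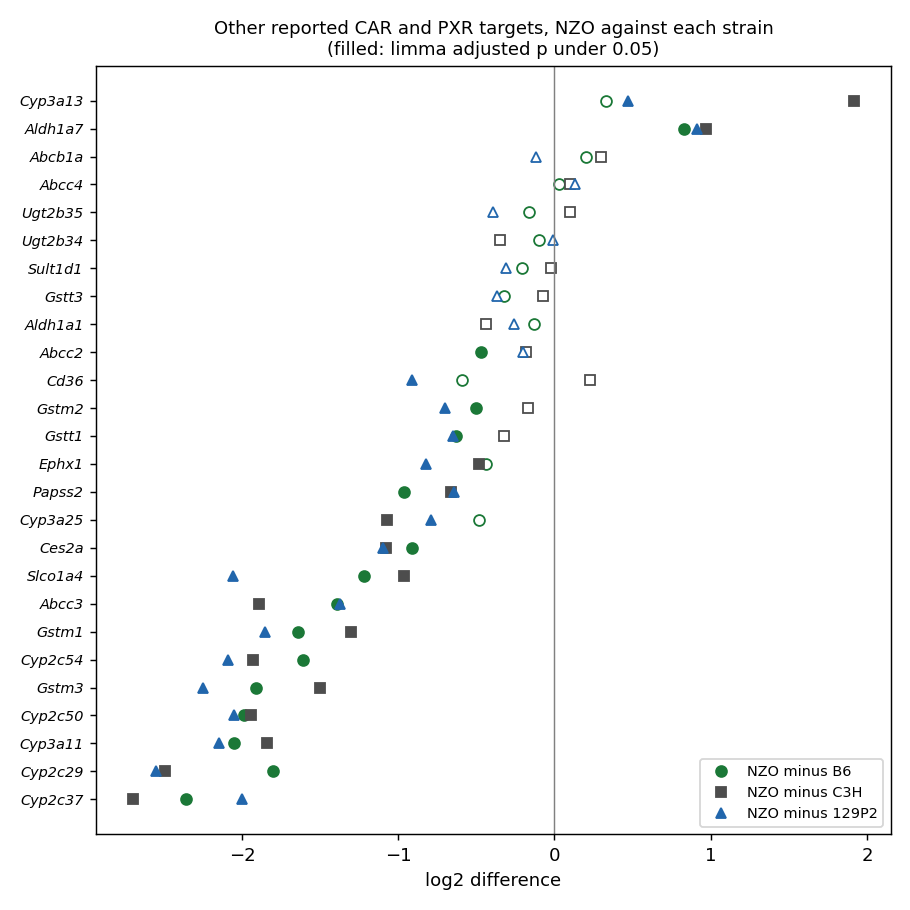
The 26 tested CAR and PXR targets outside the Cyp2b family (rows) are plotted by their log2 difference in NZO minus B6, NZO minus C3H and NZO minus 129P2 (horizontal axis), filled where the limma adjusted p was under 0.05. Most filled points lie left of 0, down to -2.70 for Cyp2c37, and Aldh1a7 and Cyp3a13 hold the filled points to the right.

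Markers of other liver cells moved with these counts. Of 5 endothelial markers, 3 fell in NZO against B6, 3 against C3H and 2 against 129P2 (60%, 60% and 40%, against 6.64%, 3.09% and 4.61% of all genes), with summed log2 levels of 10.69 to 11.12 in NZO, 11.10 to 11.58 in C3H, 11.10 to 11.52 in 129P2 and 11.11 to 11.59 in B6. Of 5 stellate cell markers, 2, 2 and 3 were lower (40%, 40% and 60%, against those same shares of all genes), with sums of 10.46 to 10.62 in NZO, 10.76 to 11.15 in C3H, 10.94 to 11.15 in 129P2 and 10.64 to 11.34 in B6. Of 5 Kupffer cell markers, 1, 0 and 1 were lower (20%, 0% and 20%). Of the 5 hepatocyte markers, 0 were called in any comparison (limma), with 1, 2 and 2 at an unadjusted p under 0.05 in the NZO comparisons. The part of these markers in the target counts was not tested.

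Among 11 tested RXR partners, 1 was called in NZO minus B6 (9.09%, against 10.3% of all genes). In NZO minus C3H, 0 were called (limma, 1 at an unadjusted p under 0.05), against 6.6% of all genes. In NZO minus 129P2, 1 was called (9.09%, against 8.9% of all genes), so these counts lay near the shares of all genes. Pparg was lower than in B6 in NZO (-0.63), C3H (-0.86) and 129P2 (-0.56), with limma adjusted p of 0.00874, 0.000749 and 0.0277. In C3H minus B6 and 129P2 minus B6 it was the 1 partner called (9.09%, against 8.05% and 6.19% of all genes). The bile acid receptor Nr1h4 was higher in NZO than in 129P2 by 0.38, and no other partner was called. Of 20 tested coregulators and chaperones, 3 were lower (15%, against 6.64% of all genes) and 0 higher in NZO than in B6. Against C3H, 0 were called (limma, 6 at an unadjusted p under 0.05), where 6.6% of all genes were. Against 129P2, 2 were higher and 2 lower (20% in all, against 8.9% of all genes). Ppargc1a, a coactivator induced by fasting, was lower in NZO than in B6 and 129P2 (-0.56 and -0.62), and the CAR chaperone gene Hsp90aa1 was lower in 129P2 than in B6 (-0.56), NZO (0.53 for NZO minus 129P2) and C3H (0.63 for C3H minus 129P2). Of 4 tested AHR partners and targets, Cyp1a2 alone was called, lower in NZO than in C3H and 129P2 (-0.51 and -0.61). That was 25% of the list in each, against 3.09% and 4.61% of all genes called lower. Among 6 tested electron donors other than Por, 1, 1 and 3 were called in NZO minus B6, C3H and 129P2. These were 16.7%, 16.7% and 50%, against 10.3%, 6.6% and 8.9% of all genes. Cyb5a was lower in NZO than in B6 (-0.37) and 129P2 (-0.49). The cytochrome b5 reductase Cyb5r3 was low in 129P2, at 12.10 ± 0.20 against 13.12 ± 0.08 in B6 (SD, n = 5 each). Its difference in 129P2 minus B6 was -1.02 (limma adjusted p = 1.55e-06). The ferredoxin Fdx1 was lower in NZO than in 129P2 (-0.77) and C3H (-0.53).

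Arrays differed in the spread of their values, and 49% of all tested genes followed that spread, measured as the interquartile range of each array, next to strain. Of the 5 members, 0 did (limma; 0 at an unadjusted p under 0.05). With the spread in the fit, Nr1i3 in NZO minus 129P2 was -1.30 (limma adjusted p = 0.00130) and in 129P2 minus B6 0.73 (adjusted p = 0.150), so the call in 129P2 minus B6 was not made in that fit. Mean interquartile ranges were 2.33 in NZO, 2.31 in C3H, 2.32 in 129P2 and 2.43 in B6.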

How the data were processed

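Liver RNA of 20 mice was measured on 1 array each. Per the submitters' processing notes, the authors made log2 values with Affymetrix Expression Console by RMA, which background-corrects, quantile-normalises and summarises probes; no versions are stated there. The deposited log2 values were used unchanged. Per the labels' protocols, RNA had an integrity number over 8. As the labels number no replicates, numbers here follow series order and only name animals.

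Named probe sets (1 gene symbol each) in the platform annotation were used, the brightest per gene. Promoter windows came from RefSeq (GRCm38.p6); the series states no genome build. R 4.3.3 was used, with tables read by data.table, version 1.17.8, and limma 3.58.1 fitted 1 mean per strain with an intensity trend, two-sided, with Benjamini-Hochberg adjustment over the tested genes (16 residual and 6.37 prior degrees of freedom). The fit was tested on simulated data. Python 3.11.15, Biopython 1.88 and matplotlib 3.10.9 read sequences and drew figures. Members and lists were chosen with earlier results of these data known. The members are named with all their values, and for a member past the F-test its 4 nearest genes are named too. For the lists, called genes are named mainly by the largest difference each way, though not in every comparison.

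Alternatives were no filter or one at the 60th percentile, arrays set to equal medians, a second quantile normalization, moderation without the trend or robust, weighted arrays, fits of the compared pair alone, averaged probe sets, thresholds on fold (treat at 1.2; at least 2), the interquartile range of arrays as covariate, 3 arrays with the narrowest range left out, and each animal left out. The slope fits and the count of targets were added after the data were seen. There is no read depth on arrays, and their number limits precision.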

Additional observations from a re-analysis of the deposited data

Results flagged for a closer look

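In 5 of 32 groups of 5 animals (8 members in 4 strains), 1 animal lay further from its nearest neighbour than Dixon's 95% critical value of 0.71 of the group's range allows; chance flags about 1 in 20 groups. All 5 were in Cyp2b genes. Cyp2b9 was 7.70 in B6 replicate 3, with the other B6 animals between 4.63 and 5.18, and this was the one such value above the dim level besides Cyp2b10 in the same animal, at 6.69 against 6.17 to 6.31 in the other B6 animals. The other 3 were dim values, with no order among themselves: Cyp2b9 at 6.36 in NZO replicate 1, Cyp2b13 at 5.30 in NZO replicate 2 and Cyp2b13 at 5.18 in B6 replicate 1. In B6 replicate 3, Cyp2b9 stood 2.78 log2 units above the mean of the other B6 animals, ranked 6 by size among 19938 genes. Cyp2b10 stood 0.45 above, ranked 943, close to that array's dim level of 6.56.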

How the results depend on the processing

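No called result changed sign under any setting. Differences that were not called did, among them Alas1 in NZO minus B6 (-0.81 to 0.11), NZO minus 129P2 (-0.57 to 0.48) and 129P2 minus B6 (-0.86 to 0.18), Nr1i2 and Rxra in 129P2 minus B6 (-0.07 to 0.04 and -0.09 to 0.02) and Ahr in C3H minus 129P2 (-0.09 to 0.02). The NZO minus 129P2 count of called members was 1 throughout (1 to 1 with each animal left out), as was that of the F-test (1 to 1), and those of C3H minus B6 and C3H minus 129P2 were 0 throughout (0 to 0). NZO minus B6 gave 1 called member, Ahr, with the stricter filter, equal array medians, no trend, robust moderation or a spread covariate (limma adjusted p between 0.0322 and 0.0494), and 0 to 1 without single animals. NZO minus C3H gave 1, Nr1i3, with only the compared strains in the fit (limma adjusted p = 0.0443), and 0 to 1 without single animals. 129P2 minus B6 gave 0 with robust moderation (0.0595), treat at 1.2-fold (0.331), a minimum fold of 2, a spread covariate (0.150) or without the 3 arrays of narrowest spread (0.0824), and 0 to 1 without single animals; these are adjusted p of Nr1i3. Members that followed array spread numbered 1 with equal medians (Nr1i2) and 1 without the narrowest arrays (Nr1i3), and 0 to 1 without single animals. Genes that followed Alas1 numbered 22 with another quantile normalization, 47 without array spread in the fit, 1 without its 2 most extreme arrays and 36 to 119 without single animals; Tuft1 was called in all 20 of the latter. Without single animals, targets lower in NZO numbered 12 to 16 against B6, 12 to 14 against C3H and 15 to 18 against 129P2, and with a minimum fold of 2, 9 against B6 and 10 against 129P2. The causes were not tested. Dim signal limits the Cyp2b genes. The strains were compared as separate, unpaired animals, so no paired analysis was made.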
